A study of Homo sapiens with 9 samples.

Results

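The ephrin, SLIT-ROBO and netrin families were examined in 3 sublines of SUIT-2, a human pancreatic ductal adenocarcinoma (PDAC) cell line. Members were matched by gene symbol: the Eph receptors of the A and B class, their ephrin ligands, the SLIT ligands and ROBO receptors, and the netrins with DCC, NEO1 and the UNC5 receptors. This gave 41 of the 42717 genes in the table. The families, and the gene lists used further below, were chosen with earlier results of these data known. The lines were S2-007, S2-028 and S2-020, grown without treatment, and each gave 3 of the 9 RNA libraries. The study described S2-007 as a line with maspin, a serine protease inhibitor family protein, in both nucleus and cytoplasm (panMaspin), and S2-028 as a line with maspin in the cytoplasm (cytMaspin). S2-020 served there as a host for maspin re-expression, and the libraries analysed here carry no label of such a vector. Each group is 1 established line, so a difference between lines cannot be told apart from any other property in which the lines differ. No source states that the 3 libraries of a line came from separate cultures, and the p-values then measure the spread between these libraries, which may be technical.

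These families were first known for steering growing axons. Eph receptors are tyrosine kinases that bind ephrins on a neighbouring cell. Class A ephrins are held in the membrane by a lipid anchor, and class B ephrins span it, so that both partners can signal on contact and cells can attract or repel each other. SLITs are secreted and act through ROBO receptors, mostly as repellents. Most netrins are secreted proteins related to laminins, and the classical ones, such as NTN1, attract through DCC and NEO1 and repel through the UNC5 receptors. Epithelial cells use the same families in sorting, adhesion and migration, and genes of axon guidance are often altered in pancreatic cancer. Setting S2-028 beside S2-007 addresses how lines with different maspin localization differ in expression, and the pairs with S2-020 extend it to the third subline.

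Total counts lay between 60328748 and 86253923 per library. Correlations of log2 CPM (counts scaled to the library size) were 0.9757 to 0.9809 within a line and 0.9407 to 0.9511 between lines, and 9 of 9 libraries were nearest to a library of their own line. Markers of acinar cells summed to at most 1.32 CPM, with AMY2A at 0. Neuronal markers summed to 1.37 to 2.11 CPM, Schwann markers to 0.264 to 1.13, fibroblast markers to 1.78 to 5.56 and endothelial markers to 5.56 to 9.95, of which PECAM1 gave most and CDH5 at most 0.251. Leukocyte markers summed to 39.8 to 44.5 CPM in S2-007, 9.17 to 10.4 in S2-020 and 11.3 to 12.5 in S2-028, mostly from CD68, with PTPRC at most 0.407. The 6 epithelial and ductal markers were present in all lines but differed between them. They summed to 9539 to 10070 CPM in S2-007, 4308 to 5426 in S2-020 and 15160 to 17760 in S2-028, and E-cadherin (CDH1) was at 52.0 to 56.8, 4.24 to 4.75 and 104 to 117 CPM. EPCAM had another order, with 515 to 542 CPM in S2-007, 119.8 to 124 in S2-020 and 405 to 429.8 in S2-028. KRT19 was at 2077 to 2156, 90.2 to 116 and 1838 to 2104 CPM. In bulk RNA, fewer cells of a type and less RNA per cell cannot be told apart. The part of these marker differences in the results on the members was not tested.

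A gene was called when its adjusted p was under 0.05 and its change was at least 1.5-fold. Every adjusted p given here is from edgeR's quasi-likelihood F-test on the 6 libraries of the lines compared, with Benjamini-Hochberg adjustment over all genes tested, and ± beside a log2 fold change is its standard error. In S2-028 against S2-007, all 41 members were tested and 20 of them (48.8%) were called, 14 higher and 6 lower in S2-028. Over all 26371 genes tested, 18.4% were called (10.2% higher, 8.19% lower). The median size of the log2 fold change, without its sign, was 0.69 for the members and 0.35 for all genes. In S2-020 against S2-007, 39 members were tested and 16 (41.0%) were called, 6 higher and 10 lower in S2-020, where 21.6% of 26657 genes were called (9.57% higher, 12.1% lower). The median size was 0.62 for the members and 0.39 for all genes. In S2-028 against S2-020, 40 members were tested and 17 (42.5%) were called, 11 higher and 6 lower in S2-028, where 22.2% of 26031 genes were called (12.1% higher, 10.1% lower). The median size there was 0.58 for the members and 0.39 for all genes. When the test was made against a 1.5-fold change, 10 members were higher and 6 lower in S2-028 against S2-007, 5 and 9 in S2-020 against S2-007, and 9 and 4 in S2-028 against S2-020. The calls that this test ended were EFNA3, EFNA5, EPHB4 and NTN1 in the first comparison, NTN1 and EPHA10 in the second, and EFNA2, EFNB1, EPHA4 and SLIT3 in the third. The libraries of the lines compared did not overlap for 26, 26 and 23 members in the same order, against 43.3%, 48.5% and 48.9% of all genes tested. The 3 comparisons share their lines and are not independent. In all, 26 members were called in at least 1 comparison, 7 of them in all 3 (EPHA1, EPHA10, EPHB2, EPHB6, EFNA2, EFNB1 and NTN4), and 15 in none.

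**Figure D1:**
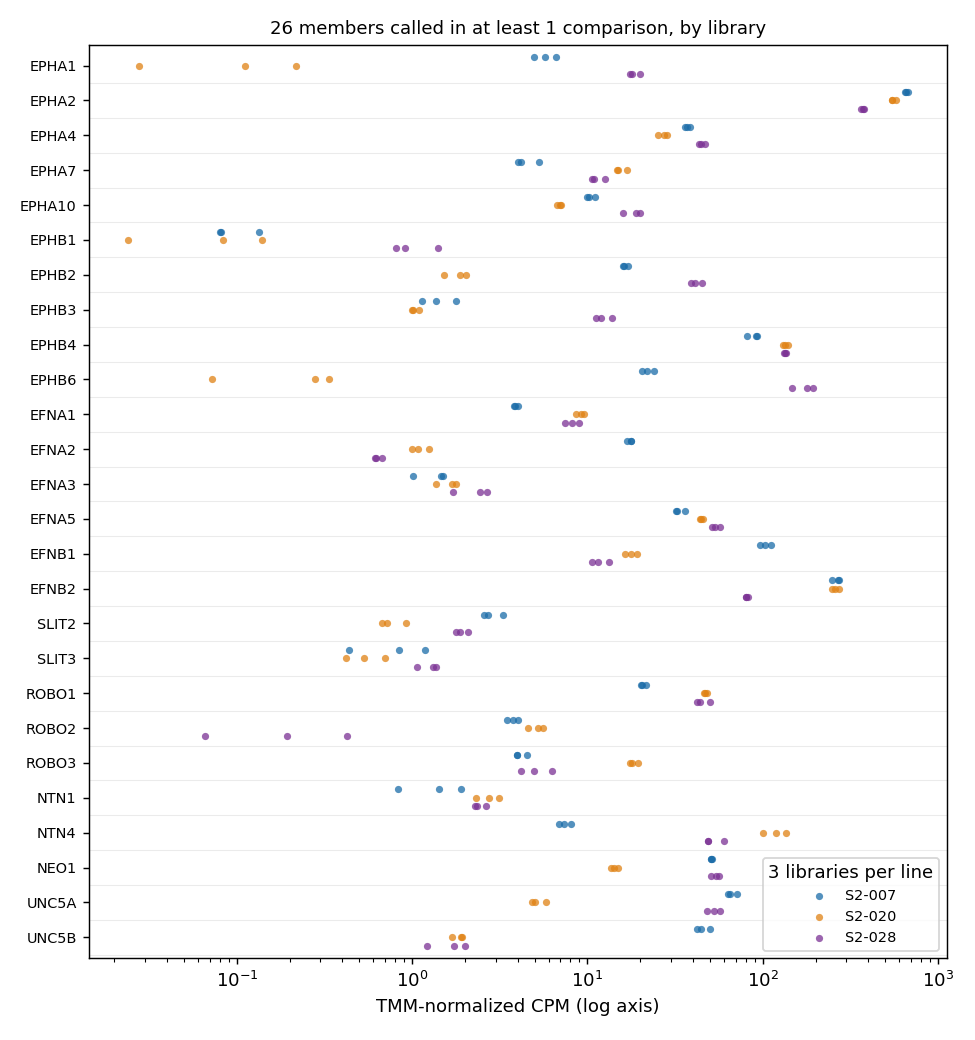
TMM-normalized CPM (horizontal log axis) of the 26 members called in at least 1 comparison, 1 row per gene and 1 point per library, with 3 libraries for each line. The libraries of a line lie close together for most genes, and EPHB6 spans from 0.0721 CPM in S2-020 to 193 CPM in S2-028.

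To compare levels between genes, CPM was divided by the length in kilobases (kb) of the canonical transcript. EPHA2 had the highest level per kb of the 41 members in all 3 lines, with 166 CPM per kb in S2-007, 141 in S2-020 and 94.4 in S2-028. EFNB2 came next in S2-007 and in S2-020 (52.7 and 51.9 CPM per kb) and had rank 4 in S2-028 (16.2). EPHB6 had rank 11 in S2-007, rank 35 in S2-020 and rank 2 in S2-028, with 5.52, 0.0571 and 43.2 CPM per kb. NTN4 had rank 15, 3 and 5 in the same order, with 2.06, 32.7 and 14.5 CPM per kb. The head of the list was therefore shared for EPHA2 and differed by line below it.

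Summed over a class, EphA receptors had 177 ± 3.18 (SD, n = 3) CPM per kb in S2-007, 149 ± 3.51 in S2-020 and 112.5 ± 2.56 in S2-028, of which EPHA2 gave 94.1%, 94.5% and 83.9%. EphB receptors summed to 27.7 ± 1.69, 31.4 ± 0.865 and 80.8 ± 6.19 CPM per kb. EPHB4 gave 98.5% of the EphB sum in S2-020 but 38.0% in S2-028, where EPHB6 gave 53.5%. Ephrin-B ligands summed to 84.2 ± 0.897, 57.6 ± 2.84 and 20.1 ± 0.411 CPM per kb, whereas the libraries of the 3 lines lay between 19.7 and 23.5 for ephrin-A ligands. Netrins summed to 2.86 ± 0.221, 33.8 ± 4.88 and 15.4 ± 1.82 CPM per kb, with 71.9%, 96.8% and 93.8% of it from NTN4. Netrin receptors summed to 32.0 ± 0.682, 4.02 ± 0.111 and 22.2 ± 1.42. ROBO receptors reached 4.46 ± 0.109, 11.6 ± 0.39 and 7.81 ± 0.818 CPM per kb, and SLIT ligands stayed at or below 0.551 in every library. S2-028 thus had the highest EphB sum and the lowest ephrin-B sum of the 3 lines, and S2-020 the highest netrin sum and the lowest netrin receptor sum.

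**Figure D2:**
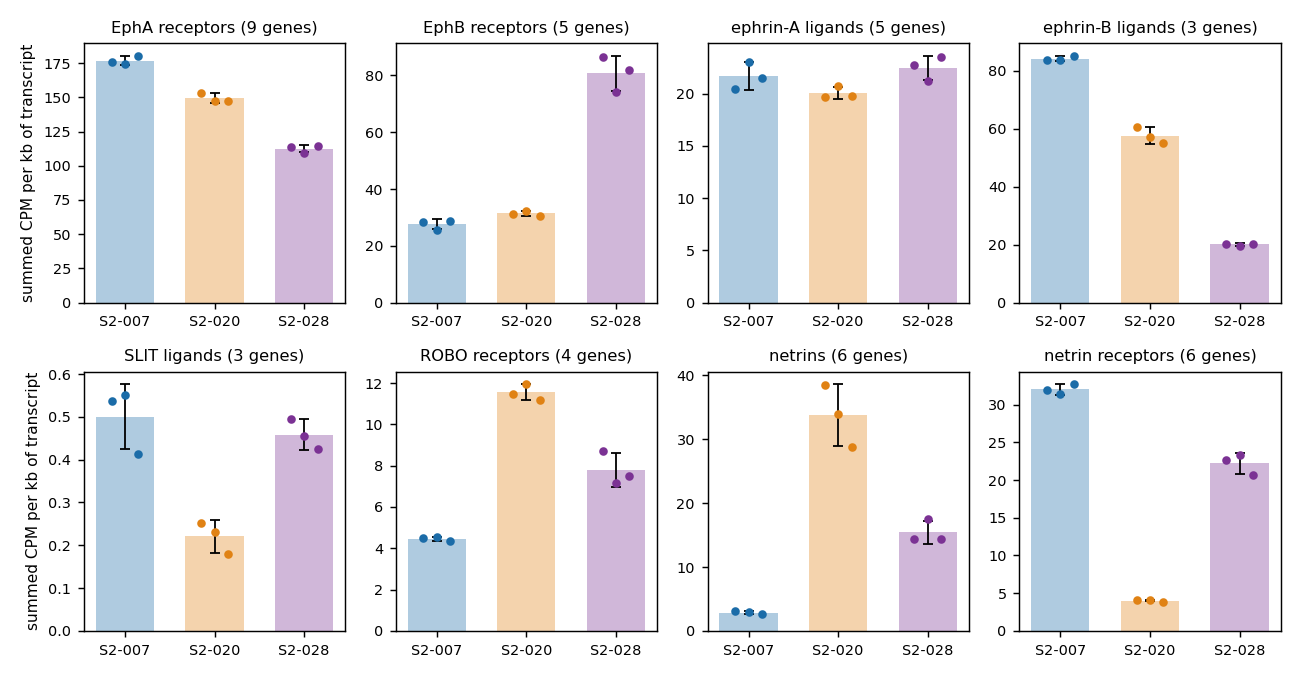
Summed CPM per kb of transcript (vertical axis, from 0) for 8 classes of members in the lines S2-007, S2-028 and S2-020. Bars are means, points are the 3 libraries and error bars are the SD. The EphB sum reached 80.8 in S2-028 against 27.7 and 31.4 in S2-007 and S2-020, and the netrin receptor sum was 4.02 in S2-020.

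Of the 5 EphB receptors, 4 had their highest level in S2-028. All 5 were called higher in S2-028 than in S2-007 (10.2% of all genes), and 4 of 5 higher in S2-028 than in S2-020 (12.1% of all genes). The promoters of EPHB6, EPHA1, EPHB2 and EPHB3 are shown because, of the Eph receptors above 10 CPM in S2-028, these differed most from S2-020, a choice made after their values were seen. Each is given as the 300 bases around a RefSeq transcript start (GRCh38.p14). Sequences are written 5′ to 3′ on the gene's own strand, with each CpG dinucleotide in capitals. The windows are chr7:142862506-142862805 on the plus strand for EPHB6, chr7:143408807-143409106 on the minus strand for EPHA1, chr1:22710588-22710887 on the plus strand for EPHB2 and chr3:184561535-184561834 on the plus strand for EPHB3.
EPHB6: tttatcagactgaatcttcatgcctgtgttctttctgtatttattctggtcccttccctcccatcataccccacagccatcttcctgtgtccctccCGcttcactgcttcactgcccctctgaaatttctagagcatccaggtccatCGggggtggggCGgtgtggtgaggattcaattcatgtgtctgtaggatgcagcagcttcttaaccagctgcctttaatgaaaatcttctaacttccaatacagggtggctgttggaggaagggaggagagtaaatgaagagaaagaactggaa
EPHA1: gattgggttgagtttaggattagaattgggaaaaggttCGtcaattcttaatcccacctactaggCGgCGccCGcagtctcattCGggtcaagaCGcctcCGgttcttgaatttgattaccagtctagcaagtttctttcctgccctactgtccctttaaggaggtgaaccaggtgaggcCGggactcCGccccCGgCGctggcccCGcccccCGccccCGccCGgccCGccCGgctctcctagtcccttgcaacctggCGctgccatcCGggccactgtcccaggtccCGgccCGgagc
EPHB2: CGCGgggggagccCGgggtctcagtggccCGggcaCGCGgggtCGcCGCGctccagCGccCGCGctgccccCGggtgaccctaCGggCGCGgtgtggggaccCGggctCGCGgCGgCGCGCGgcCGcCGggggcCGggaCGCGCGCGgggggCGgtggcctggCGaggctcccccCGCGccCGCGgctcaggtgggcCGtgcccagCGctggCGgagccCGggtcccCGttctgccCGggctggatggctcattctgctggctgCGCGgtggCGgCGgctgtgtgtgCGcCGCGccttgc
EPHB3: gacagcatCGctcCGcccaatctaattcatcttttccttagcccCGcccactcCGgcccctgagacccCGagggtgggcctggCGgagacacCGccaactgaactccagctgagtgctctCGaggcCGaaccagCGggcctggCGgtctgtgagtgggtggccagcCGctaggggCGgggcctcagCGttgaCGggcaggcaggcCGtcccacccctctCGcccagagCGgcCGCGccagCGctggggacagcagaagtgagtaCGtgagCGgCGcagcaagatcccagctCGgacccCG
The number of CpG dinucleotides was 3 for EPHB6, 21 for EPHA1, 49 for EPHB2 and 26 for EPHB3, against a median of 14 over 27305 promoters of the same length and 21.5 over the 34 members that had one. Fewer CpG than in these windows were found in 19.0%, 60.5%, 98.4% and 70.2% of all promoters. The start used for EPHB6 lies 7680 bases inside the gene's span, so that the window stands for 1 of its starts and not for the outermost one. The letters GGGCGG, searched on both strands, occurred in 27 of the 34 members' promoters and in 44.6% of all promoters. CTTTGAA, likewise searched on both strands, occurred in 1 of the 34 (SLIT1) and in 4.53% of all promoters. The methylation of these promoters was not measured here.

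EPHB6 (chr7:142855076-142871093, plus strand), an Eph receptor whose kinase domain is inactive, differed most between S2-020 and S2-028 among the members. Its level was 21.7, 20.4 and 24.1 CPM in the 3 S2-007 libraries, 0.278, 0.0721 and 0.3345 in S2-020 and 193, 147 and 179 in S2-028. No libraries of any pair of lines overlapped, and the S2-020 values stood for 20, 6 and 24 reads. EPHB6 had a log2 fold change of 2.97 ± 0.09 in S2-028 against S2-007 (adjusted p = 3.17e-16), -6.66 ± 0.22 in S2-020 against S2-007 (adjusted p = 3.72e-15) and 9.60 ± 0.18 in S2-028 against S2-020 (adjusted p = 1.95e-18). EPHB2 (chr1:22710838-22921500, plus strand), a kinase-active receptor that is a Wnt target in the intestinal crypt, had the same order of lines. It was at 16.02, 17.03 and 16.2 CPM in S2-007, 1.52, 1.875 and 2.035 in S2-020 and 38.7, 41.2 and 44.8 in S2-028. EPHB2 rose by 1.34 ± 0.08 in S2-028 against S2-007 on the log2 scale (adjusted p = 2.57e-11). Its log2 fold change was -3.21 ± 0.13 in S2-020 against S2-007 (adjusted p = 1.06e-13) and 4.52 ± 0.12 in S2-028 against S2-020 (adjusted p = 1.81e-16). For both genes S2-020 was the lowest line and S2-028 the highest.

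EPHB3 (chr3:184561785-184582408, plus strand), which acts with EPHB2 in positioning cells of the crypt, was high in S2-028 alone. The libraries had 1.135, 1.79 and 1.37 CPM in S2-007, 1.002, 1.01 and 1.09 in S2-020 and 13.8, 11.96 and 11.1 in S2-028. Its log2 fold change was 3.11 ± 0.18 in S2-028 against S2-007 (adjusted p = 6.27e-12) and 3.57 ± 0.16 against S2-020 (adjusted p = 5.20e-13). S2-007 and S2-020 did not pass the test against each other (-0.50 ± 0.27, adjusted p = 0.153), although their libraries did not overlap. EPHB1, a receptor best known from retinal axons at the midline, was near the detection limit except in S2-028. It had 0.134, 0.0806 and 0.0815 CPM in S2-007 and 0.0835, 0.02404 and 0.139 in S2-020, or 2 to 10 reads per library, and 0.805, 0.908 and 1.41 CPM in S2-028. EPHB1 was called higher in S2-028 than in S2-007 (3.38 ± 0.49, adjusted p = 9.71e-06) and than in S2-020 (3.66 ± 0.55, adjusted p = 1.82e-05), the latter 4.27 without S2-020 replicate 3. S2-020 against S2-007 was not tested for EPHB1, since too few libraries passed the filter on low counts.

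EPHB4 (chr7:100802565-100827523, minus strand), the receptor of ephrin-B2 in veins, was high in all lines and lowest in S2-007. It had 92.45, 81.2 and 91.6 CPM in S2-007, 134, 139 and 131 in S2-020 and 135, 133 and 131.5 in S2-028. The S2-007 libraries lay below all others, and those of S2-020 and S2-028 overlapped. For EPHB4 the log2 fold change was 0.60 ± 0.06 in S2-028 against S2-007 (adjusted p = 1.37e-07) and 0.57 ± 0.06 in S2-020 against S2-007 (adjusted p = 8.52e-08), on either side of the 1.5-fold threshold. The first call was lost without S2-007 replicate 2 (0.55) or S2-028 replicate 1 (0.58), and the second was gained without S2-007 replicate 1 (0.62), S2-007 replicate 3 (0.62) or S2-020 replicate 3 (0.60). S2-028 and S2-020 differed by -0.01 ± 0.05 (adjusted p = 0.905).

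Of the 9 EphA receptors, 3 were called higher and 1 lower in S2-028 against S2-007 (10.2% and 8.19% of all genes). EPHA2 (chr1:16124337-16156069, minus strand), the main Eph receptor of many epithelial tumours, was the one that fell. It had 654, 645 and 669 CPM in S2-007, 574, 547 and 548 in S2-020 and 374, 364 and 379 in S2-028. All S2-028 libraries lay below all others, and all S2-020 libraries below those of S2-007. For EPHA2 the log2 fold change was -0.81 ± 0.05 in S2-028 against S2-007 (adjusted p = 7.68e-11). In S2-028 against S2-020 it was -0.58 ± 0.05 (adjusted p = 3.62e-09), just under 1.5-fold, and it passed that threshold without S2-020 replicate 2 or replicate 3 (-0.59 both times). S2-020 against S2-007 gave -0.27 ± 0.05 (adjusted p = 5.80e-05), also under 1.5-fold. The most abundant Eph receptor thus had its lowest level in the line in which the EphB sum was highest, although EPHB4 was not highest there. The antisense gene EPHA2-AS1 had 469 to 924 reads per library, beside 23119 to 49293 for EPHA2. In the gene annotation used here, 0% of the exon bases of EPHA2 lie under another gene. Whether the counting used strand is not given in the sources used here.

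EPHA1 (chr7:143391129-143408856, minus strand), the founding member of the Eph family, had the order of lines seen for EPHB6. It was at 4.96, 5.74 and 6.599 CPM in S2-007, 0.0278, 0.216 and 0.1115 in S2-020 and 19.96, 17.98 and 17.4 in S2-028. The S2-020 values stood for 2, 18 and 8 reads, and no libraries of different lines overlapped. EPHA1 had a log2 fold change of 1.68 ± 0.12 in S2-028 against S2-007 (adjusted p = 3.65e-10), -5.57 ± 0.34 in S2-020 against S2-007 (adjusted p = 3.77e-11) and 7.21 ± 0.25 in S2-028 against S2-020 (adjusted p = 1.81e-14). Without S2-020 replicate 2 the last 2 were -6.36 and 8.01. EPHA10, which also lacks an active kinase, was at 10.1, 11.03 and 9.898 CPM in S2-007, 6.71, 6.935 and 7.05 in S2-020 and 19.9, 15.99 and 18.99 in S2-028. It was called in all comparisons, with 0.82 ± 0.11 in S2-028 against S2-007 (adjusted p = 3.77e-06), -0.62 ± 0.11 in S2-020 against S2-007 (adjusted p = 1.61e-04) and 1.41 ± 0.11 in S2-028 against S2-020 (adjusted p = 3.55e-09). The second call fell under 1.5-fold without S2-007 replicate 2 (-0.55). In EPHA1 and EPHA10, as in EPHB2 and EPHB6, S2-020 was lowest and S2-028 highest. All 6 epithelial markers were also lowest in S2-020, while 4 of them (KRT8, KRT18, KRT7 and CDH1) were highest in S2-028 and KRT19 and EPCAM were not, and the part of that in these receptors was not tested.

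EPHA4, which binds ephrins of both classes, had 35.8, 36.9 and 38.3 CPM in S2-007, 25.2, 28.4 and 27.3 in S2-020 and 44.4, 43.3 and 46.7 in S2-028. The 3 lines did not overlap, but the gene was called in S2-028 against S2-020 alone (0.73 ± 0.07, adjusted p = 1.00e-07). The other differences were under 1.5-fold, with 0.28 ± 0.07 in S2-028 against S2-007 (adjusted p = 0.00323) and -0.49 ± 0.07 in S2-020 against S2-007 (adjusted p = 9.07e-06). EPHA7, a receptor of the developing cortex, was lowest in S2-007. Its level was 4.17, 5.29 and 4.03 CPM in S2-007, 14.9, 16.8 and 14.7 in S2-020 and 12.5, 10.65 and 10.95 in S2-028. EPHA7 rose by 1.34 ± 0.14 on the log2 scale in S2-028 against S2-007 (adjusted p = 1.56e-07) and by 1.75 ± 0.13 in S2-020 against S2-007 (adjusted p = 6.04e-10). S2-028 was at -0.44 ± 0.11 against S2-020 (adjusted p = 0.0021), under 1.5-fold.

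EPHB6 and EPHA1 lie 520 kb apart on chromosome 7, and the genes around them were examined for the same differences. In S2-020 against S2-007, 12 tested genes lie between the pair, of which 6 were called lower and 0 higher (12.1% and 9.57% of all genes). Their median log2 fold change was -0.70, with a range of -7.45 to 1.09. The median over the 50 nearest tested genes was -0.53 for both receptors, with 17 genes called in either direction around EPHB6 and 18 around EPHA1, against 21.6% of all genes. All genes tested had a median of -0.05 in that comparison. In S2-028 against S2-007, 11 tested genes lie in the interval, of which 2 were called higher and 2 lower (10.2% and 8.19% of all genes). They ranged from -2.88 (CLCN1) to 3.17 (TRPV6), and the median of the 50 neighbours was -0.05 for EPHB6 and -0.06 for EPHA1. S2-028 against S2-020 had 10 tested genes there, 2 called higher and 1 lower (12.1% and 10.1% of all genes), and a neighbour median of 0.29. In that comparison the 50 neighbours of each receptor spanned 3.35 megabases, so the 2 sets share genes. The lower level in S2-020 was thus shared by 6 of the genes in between, whereas the higher level of the pair in S2-028 than in S2-007 was not shared by the median of its neighbours. Gene copy number was not measured here.

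Around EFNB2 on chromosome 13, the 50 nearest tested genes had a median of -0.43 in S2-028 against S2-007 and -0.82 in S2-028 against S2-020. Of them 20 and 23 were called in either direction, where 18.4% and 22.2% of all genes were. Their median was 0.24 in S2-020 against S2-007 (13 called, against 21.6% of all genes), while EFNB2 itself was not called. ROBO2 moved against its own neighbours, whose median was 0.48 in S2-028 against S2-007 and 0.35 in S2-028 against S2-020. In the latter comparison the 50 neighbours spanned 20.7 megabases for ROBO2 and 8.84 for EFNB2, so many of them are not close by. NTN4, UNC5B and EPHB2 had neighbour medians between -0.12 and 0.08 in all 3 comparisons.

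**Figure D3:**
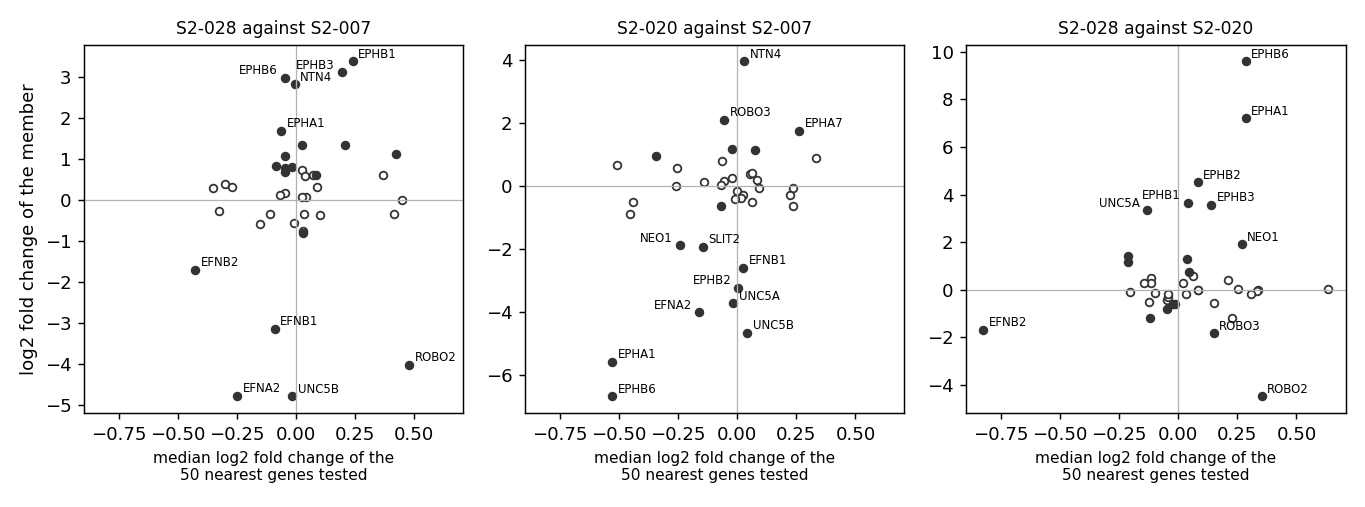
Log2 fold change of each member (vertical axis) against the median log2 fold change of the 50 nearest genes tested (horizontal axis), 1 panel per comparison. Filled points are called members, open points are members not called, and called members with an absolute log2 fold change above 1.5 are named. EPHB6 and EPHA1 sit at a neighbour median of -0.53 in S2-020 against S2-007, and EFNB2 at -0.82 in S2-028 against S2-020.

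Of the 3 ephrin-B ligands, EFNB1 and EFNB2 were called lower in S2-028 against S2-007 (8.19% of all genes), and again against S2-020 (10.1% of all genes). EFNB1 (chrX:68829021-68842160, plus strand), the ephrin mutated in craniofrontonasal syndrome, had 112, 95.8 and 103 CPM in S2-007, 19.2, 17.6 and 16.4 in S2-020 and 13.3, 10.55 and 11.4 in S2-028. All S2-007 libraries lay far above the others, and the S2-020 libraries lay above those of S2-028. EFNB1 had a log2 fold change of -3.13 ± 0.09 in S2-028 against S2-007 (adjusted p = 1.18e-16) and -2.58 ± 0.07 in S2-020 against S2-007 (adjusted p = 3.79e-16). In S2-028 against S2-020 it was -0.59 ± 0.11 (adjusted p = 1.59e-04), a call that was lost without S2-020 replicate 1 (-0.54), S2-028 replicate 2 (-0.50) or S2-028 replicate 3 (-0.56). EFNB2 (chr13:106489745-106535662, minus strand), the arterial partner of EPHB4, was low in S2-028 alone. It had 248, 272 and 269.6 CPM in S2-007, 272.5, 257 and 249 in S2-020 and 80.1, 79.8 and 82.8 in S2-028. Its log2 fold change was -1.70 ± 0.06 in S2-028 against S2-007 (adjusted p = 2.73e-15) and -1.68 ± 0.05 against S2-020 (adjusted p = 4.43e-15), whereas S2-020 and S2-007 overlapped (-0.05 ± 0.05, adjusted p = 0.506). A gene on the opposite strand covers 36.4% of the exon bases of EFNB2, so reads from it cannot be told apart if the counting did not use strand.

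The ephrin-A ligands did not move in one direction. In S2-028 against S2-007, 3 were called higher and 1 lower (10.2% and 8.19% of all genes). EFNA2 (chr19:1284227-1301431, plus strand) had the largest difference of the class. Its libraries had 17.8, 16.9 and 17.8 CPM in S2-007, 1.09, 1.25 and 1.004 in S2-020 and 0.612, 0.673 and 0.623 in S2-028. The S2-007 values stood apart from all others. For EFNA2 the log2 fold change was -4.77 ± 0.15 in S2-028 against S2-007 (adjusted p = 5.97e-16) and -3.9989 ± 0.13 in S2-020 against S2-007 (adjusted p = 3.76e-15). Between S2-028 and S2-020 it was -0.80 ± 0.31 (adjusted p = 0.0463), and this call was lost without any 1 of the 6 libraries, with adjusted p between 0.0617 and 0.159. It was also lost with the replicate number as a block (-0.80). EFNA1, the usual ligand of EPHA2, had 4.01, 3.87 and 3.79 CPM in S2-007, 9.14, 9.57 and 8.6 in S2-020 and 9.004, 7.48 and 8.165 in S2-028. EFNA1 rose by 1.08 ± 0.15 in S2-028 against S2-007 (adjusted p = 4.19e-06) and by 1.20 ± 0.13 in S2-020 against S2-007 (adjusted p = 2.24e-07), and S2-028 and S2-020 overlapped (-0.15 ± 0.12, adjusted p = 0.396).

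EFNA5, a repellent ligand in the visual map, rose in smaller steps. It had 32.25, 36.2 and 31.8 CPM in S2-007, 45.4, 43.8 and 44.2 in S2-020 and 51.5, 53.2 and 56.7 in S2-028, with no overlap between lines. The call was made in S2-028 against S2-007 (0.69 ± 0.08, adjusted p = 1.92e-07) and was lost in the test against 1.5-fold (adjusted p = 0.197). The other log2 fold changes were 0.38 ± 0.07 in S2-020 against S2-007 (adjusted p = 1.40e-04) and 0.28 ± 0.06 in S2-028 against S2-020 (adjusted p = 0.00168). EFNA3 was low in all lines, with 1.015, 1.46 and 1.51 CPM in S2-007, 1.78, 1.695 and 1.37 in S2-020 and 2.45, 1.71 and 2.69 in S2-028. Its only call was in S2-028 against S2-007 (0.78 ± 0.26, adjusted p = 0.022), and it was lost without S2-007 replicate 1 (adjusted p = 0.100), S2-028 replicate 1 (0.0792) or S2-028 replicate 3 (0.103). In S2-028 against S2-020 the value was 0.50 ± 0.24 (adjusted p = 0.113), which became a call without S2-028 replicate 2 (0.69, adjusted p = 0.0322). In S2-020 against S2-007 it was 0.25 ± 0.25 (adjusted p = 0.487). A readthrough gene of EFNA4 and EFNA3 covers 43.9% of the exon bases of EFNA3 in the gene annotation used here. It is not among the genes counted, so reads from such a transcript cannot be told apart from those of EFNA3 itself.

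**Figure D4:**
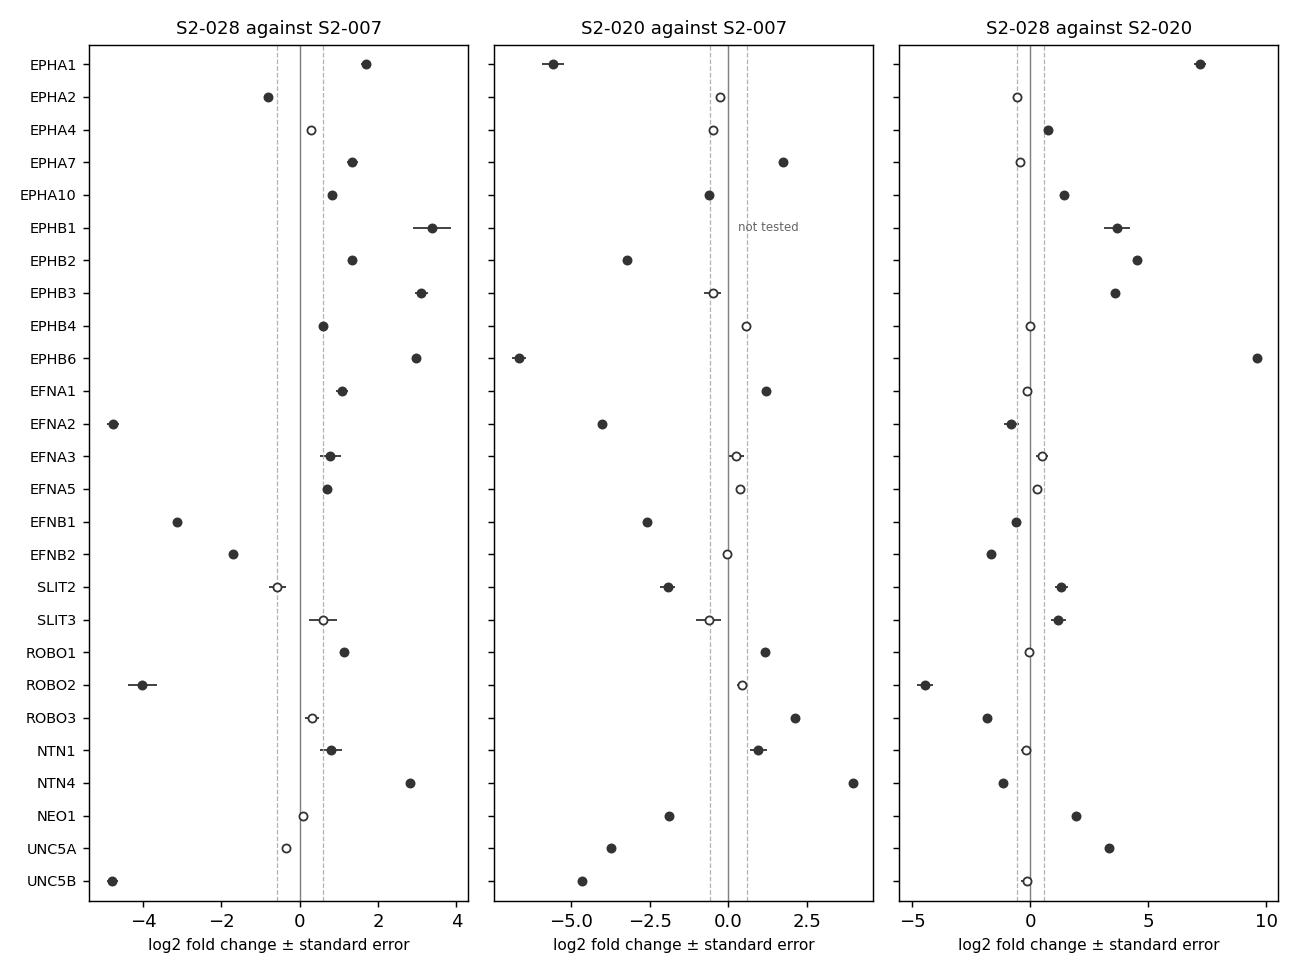
Log2 fold change with its standard error (bars) for the 26 members called in at least 1 comparison, 1 panel per comparison with its own horizontal scale. Filled points were called, open points were not, and dashed lines mark 1.5-fold in either direction. EPHB6 reached 9.60 in S2-028 against S2-020 and -6.66 in S2-020 against S2-007, and EFNB1 lay below 0 in all 3 panels.

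The SLIT ligands had low levels. Of the 4 ROBO receptors, 1 was called higher and 1 lower in S2-028 against S2-007 (10.2% and 8.19% of all genes). In S2-020 against S2-007, 2 were higher (9.57% of all genes), and in S2-028 against S2-020, 2 were lower (10.1% of all genes). ROBO4 was called in none. SLIT2, the best studied repellent of the family, had 2.698, 3.304 and 2.57 CPM in S2-007, 0.919, 0.721 and 0.669 in S2-020 and 2.09, 1.88 and 1.77 in S2-028. S2-020 lay below both other lines, at -1.92 ± 0.24 against S2-007 (adjusted p = 1.36e-06), and S2-028 rose by 1.32 ± 0.27 against S2-020 (adjusted p = 4.40e-04). S2-028 against S2-007 gave -0.57 ± 0.21 (adjusted p = 0.0438), under 1.5-fold, and passed it without S2-007 replicate 3 (-0.66, adjusted p = 0.0399). SLIT3 had 1.19, 0.846 and 0.4345 CPM in S2-007, 0.529, 0.697 and 0.418 in S2-020 and 1.32, 1.36 and 1.07 in S2-028. It was called in S2-028 against S2-020 (1.18 ± 0.33, adjusted p = 0.00621), and S2-007 overlapped both other lines. The values against S2-007 were 0.60 ± 0.35 for S2-028 (adjusted p = 0.219) and -0.62 ± 0.40 for S2-020 (adjusted p = 0.251).

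ROBO1 and ROBO2 are the main SLIT receptors and neighbours on chromosome 3. ROBO1 (chr3:78597239-79767998, minus strand) had 21.5, 20.1 and 20.6 CPM in S2-007, 47.01, 47.9 and 46.25 in S2-020 and 50.1, 42.1 and 43.7 in S2-028. S2-007 was the low line. ROBO1 rose by 1.13 ± 0.08 in S2-028 against S2-007 (adjusted p = 5.64e-10) and by 1.15 ± 0.07 in S2-020 against S2-007 (adjusted p = 2.62e-11), with -0.05 ± 0.07 between S2-028 and S2-020 (adjusted p = 0.626). ROBO2 (chr3:75906675-77649964, plus strand) was nearly absent from S2-028. It had 3.75, 4.02 and 3.48 CPM in S2-007, 5.23, 5.58 and 4.6 in S2-020 and 0.193, 0.423 and 0.0656 in S2-028, the last from 12, 27 and 4 reads. The log2 fold change of ROBO2 was -4.02 ± 0.37 in S2-028 against S2-007 (adjusted p = 1.36e-08) and -4.47 ± 0.35 in S2-028 against S2-020 (adjusted p = 2.59e-09). Without S2-028 replicate 2 these were -4.83 and -5.27. In S2-020 against S2-007 it was 0.42 ± 0.16 (adjusted p = 0.0372), under 1.5-fold. In S2-028 the level of ROBO2 was thus low while that of its neighbour ROBO1 was above S2-007.

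ROBO3, which governs midline crossing in the hindbrain and spinal cord, was high in S2-020. Its libraries had 3.95, 4.5 and 3.95 CPM in S2-007, 17.9, 19.4 and 17.4 in S2-020 and 6.27, 4.18 and 4.97 in S2-028. ROBO3 rose by 2.11 ± 0.11 in S2-020 against S2-007 (adjusted p = 4.63e-12), and S2-028 was at -1.83 ± 0.13 against S2-020 (adjusted p = 1.09e-09). S2-028 and S2-007 overlapped (0.32 ± 0.18, adjusted p = 0.201).

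Among the netrins, NTN4 (chr12:95657807-95791155, minus strand), a laminin-like netrin of basement membranes, differed most. It had 8.095, 6.92 and 7.36 CPM in S2-007, 136, 119 and 101 in S2-020 and 48.8, 59.95 and 48.4 in S2-028. No libraries of different lines overlapped, with S2-020 highest and S2-007 lowest. NTN4 rose by 2.81 ± 0.10 in S2-028 against S2-007 (adjusted p = 2.85e-15) and by 3.96 ± 0.10 in S2-020 against S2-007 (adjusted p = 4.62e-17), and its log2 fold change was -1.18 ± 0.09 in S2-028 against S2-020 (adjusted p = 4.19e-09). NTN1, the classical axon attractant, was low and more variable. It had 1.42, 1.89 and 0.828 CPM in S2-007, 2.31, 3.14 and 2.73 in S2-020 and 2.63, 2.27 and 2.33 in S2-028. Its log2 fold change was 0.95 ± 0.26 in S2-020 against S2-007 (adjusted p = 0.00656) and -0.18 ± 0.20 in S2-028 against S2-020 (adjusted p = 0.548). In S2-028 against S2-007 it was 0.80 ± 0.27 (adjusted p = 0.0276), a call lost without S2-007 replicate 3 (0.53, adjusted p = 0.136) or S2-028 replicate 1 (0.73, adjusted p = 0.103).

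Of the 6 netrin receptors, 3 (NEO1, UNC5A and UNC5B) were called lower in S2-020 than in S2-007 and 0 higher (12.1% and 9.57% of all genes). NEO1 (chr15:73051692-73305206, plus strand), the DCC relative that also binds repulsive guidance molecules, had 51.3, 50.95 and 50.8 CPM in S2-007, 14.2, 14.9 and 13.55 in S2-020 and 55.97, 54.1 and 50.7 in S2-028. S2-007 and S2-028 overlapped (0.07 ± 0.07, adjusted p = 0.471). The log2 fold change of NEO1 was -1.87 ± 0.07 in S2-020 against S2-007 (adjusted p = 2.33e-14) and 1.91 ± 0.08 in S2-028 against S2-020 (adjusted p = 1.33e-13). UNC5A (chr5:176810559-176880898, plus strand), a receptor that can trigger cell death when netrin is lacking, had 63.4, 65.1 and 71.4 CPM in S2-007, 5.76, 4.99 and 4.82 in S2-020 and 52.6, 56.8 and 48.2 in S2-028. It was at -3.71 ± 0.08 in S2-020 against S2-007 (adjusted p = 1.01e-17), at 3.34 ± 0.10 in S2-028 against S2-020 (adjusted p = 8.86e-16) and at -0.34 ± 0.07 in S2-028 against S2-007 (adjusted p = 5.63e-04), the last under 1.5-fold. Both genes therefore separated S2-020 from the other 2 lines. E-cadherin was also lowest in S2-020, and its part in this was not tested.

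UNC5B (chr10:71212570-71302864, plus strand), a receptor of the same kind and a p53 target, had another order of lines. It had 49.95, 44.3 and 42.3 CPM in S2-007, 1.698, 1.91 and 1.92 in S2-020 and 1.997, 1.22 and 1.74 in S2-028. S2-007 stood far above both others, which overlapped. The log2 fold change was -4.78 ± 0.14 in S2-028 against S2-007 (adjusted p = 1.39e-16), -4.65 ± 0.11 in S2-020 against S2-007 (adjusted p = 9.98e-18) and -0.16 ± 0.24 in S2-028 against S2-020 (adjusted p = 0.676). UNC5B and EFNA2 thus shared a high level in S2-007, and EFNB1 had its highest level there too. The leukocyte marker CD68 was likewise highest in S2-007, at 38.3 to 43.2 CPM against at most 11.3 in the other lines, and its part in these members was not tested.

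The other 15 members were called in no comparison. EFNA4, at 4.93 to 7.60 CPM, EPHA6, at 2.61 to 5.01 CPM, and UNC5D, at 1.77 to 2.59 CPM, were present in every library. NTNG2 (0.736 to 1.52 CPM) and EFNB3 (0.380 to 1.41 CPM) reached 1 CPM in some libraries. DCC, EPHA3, EPHA5, EPHA8, NTN3, NTN5, NTNG1, ROBO4, SLIT1 and UNC5C stayed below 1 CPM in all 9 libraries, so that small differences in them were not detectable at this depth. DCC, the principal attractive netrin receptor, was at 0.167 to 0.815 CPM, and ROBO4, the ROBO of blood vessels, at 0.394 to 0.819. EPHA5 had 0 reads in 2 libraries and was tested in S2-028 against S2-007 alone, where it was not called (0.39, adjusted p = 0.808). Other genes cover 18% of the exon bases of ROBO4, 15% of EFNA4 and 11% of EPHA6, which makes their counts less certain.

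The other genes of these pathways were taken from 2 lists, extracellular partners and cytoplasmic effectors. Of 20 partners, 19 were tested. In S2-028 against S2-007, 2 were called higher and 1 lower (15.8%), against 18.4% of all genes. GPC1, a glypican that binds SLIT, was the one that fell, from 169 ± 19.5 CPM (SD, n = 3) in S2-007 to 38.0 ± 2.64 in S2-028 (log2 fold change -2.15 ± 0.08, adjusted p = 3.07e-15). ADGRL1 (1.22 ± 0.07, adjusted p = 1.13e-11) and ADGRL2 (0.92 ± 0.08, adjusted p = 4.96e-09), latrophilins that bind FLRT proteins, rose. In S2-020 against S2-007, 3 were called higher and 1 lower (21.1%, against 21.6% of all genes). ADGRL2 (2.11 ± 0.07, adjusted p = 3.53e-15), ADGRL1 (1.27 ± 0.08, adjusted p = 4.02e-11) and FLRT3 (1.16 ± 0.08, adjusted p = 2.05e-10), a ligand of UNC5 receptors, rose, and the syndecan SDC1 was at -1.81 ± 0.05 (adjusted p = 4.92e-16). In S2-028 against S2-020, 1 partner was called higher and 5 lower (31.6%, against 22.2% of all genes). SDC1 rose there (1.51 ± 0.06, adjusted p = 4.95e-14), and GPC1 (-2.31 ± 0.06, adjusted p = 2.43e-16), ADGRL2 (-1.22 ± 0.06, adjusted p = 2.92e-12) and dystroglycan (DAG1, -0.62 ± 0.05, adjusted p = 1.25e-08) were lower.

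Of the cytoplasmic effectors, all 55 were tested and 21 (38.2%) were called in each of the 3 comparisons, where 18.4%, 21.6% and 22.2% of all genes were called. The median size of their log2 fold change, without its sign, was 0.43, 0.44 and 0.44 in the same order. For all genes it was 0.35, 0.39 and 0.39. Of the 21, 14 were higher and 7 lower in S2-028 against S2-007 (10.2% and 8.19% of all genes). They were 12 and 9 in S2-020 against S2-007 (9.57% and 12.1% of all genes), and 12 and 9 in S2-028 against S2-020 (12.1% and 10.1%). ABLIM3, an actin-binding protein of the netrin pathway, had 1.89 ± 0.587 CPM (SD, n = 3) in S2-007, 3.06 ± 0.588 in S2-020 and 60 ± 2.46 in S2-028. It rose by 4.99 ± 0.14 in S2-028 against S2-007 (adjusted p = 1.14e-16) and by 4.30 ± 0.11 against S2-020 (adjusted p = 1.73e-16). RASA1, a Ras GTPase-activating protein that binds Eph receptors, likewise rose by 2.08 ± 0.08 against S2-007 (adjusted p = 5.31e-15) and by 2.12 ± 0.06 against S2-020 (adjusted p = 9.57e-16). LIMK1 (0.98 ± 0.06, adjusted p = 1.98e-11), the kinase of cofilin, and the adaptor CRKL (1.01 ± 0.06, adjusted p = 2.1e-11) rose in S2-028 against S2-007.

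TIAM1 and VAV3, both exchange factors for Rac, had different orders of lines. TIAM1 had 51.8 ± 0.801 CPM (SD, n = 3) in S2-007, 10.6 ± 0.499 in S2-020 and 102 ± 11.1 in S2-028, with -2.32 ± 0.07 in S2-020 against S2-007 (adjusted p = 1.44e-15) and 3.27 ± 0.08 in S2-028 against S2-020 (adjusted p = 1.37e-16). VAV3 had 6.30 ± 0.178, 46.5 ± 2.19 and 8.14 ± 0.936 CPM in the same order of lines, with 2.85 ± 0.08 in S2-020 against S2-007 (adjusted p = 3.09e-16) and -2.51 ± 0.09 in S2-028 against S2-020 (adjusted p = 4.09e-14). TIAM1 was thus lowest and VAV3 highest in S2-020. VAV2 and DOCK1, also Rac exchange factors, were called in no comparison and TRIO in S2-020 against S2-007 alone (0.59 ± 0.06, adjusted p = 2.73e-08). NGEF, another exchange factor of the list, was called lower than in S2-007 in both other lines. It was at -0.72 ± 0.06 in S2-028 (adjusted p = 4.91e-09) and at -1.04 ± 0.07 in S2-020 (adjusted p = 7.89e-11). In S2-020 against S2-007, the kinase SRC was at -1.42 ± 0.06 (adjusted p = 5.07e-14) and PICALM, an endocytic adaptor, at 1.19 ± 0.05 (adjusted p = 5.32e-14).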

How the data were processed

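RNA of 9 libraries (3 each of S2-007, S2-020 and S2-028) was sequenced after poly(A) enrichment with strand-specific libraries. Per the submitters' processing notes, Trimmomatic 0.39, BWA 0.7.17 and SAMtools 1.12 were used with GRCh38.p14. The authors deposited read counts per gene without normalization. BWA does not join reads across introns, and the counter, its use of strand and its handling of multiply mapped reads are not given in the sources used here. In the table, 2 lines name no gene and 18 columns hold values the authors normalized, and neither was used.

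Counts were tested in R 4.3.3 with edgeR 4.0.16: filterByExpr (minimum count 10, minimum total 15), TMM normalization, glmQLFit and glmQLFTest, with the 6 libraries of each comparison. The standard error was computed from the log2 fold change and the F statistic. P-values were adjusted by Benjamini-Hochberg, and DEGs needed an adjusted p under 0.05 with at least a 1.5-fold change. Printed CPM use the TMM factors of all 9 libraries, so that fold changes of the 6-library fits can differ slightly from their ratio. Lengths and overlaps were taken from GENCODE v44, coordinates and promoters from RefSeq on GRCh38.p14, where all 41 members matched and 34 had a promoter. The scripts were tested on simulated data. Precision is limited by 3 libraries per line, with total counts of 60328748 to 86253923 per library. No pair of libraries was a duplicate, since the chi-square per gene was at least 7.10 within a line and at least 172 between lines.

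Every member was to be named. Those with a mean of at least 1 CPM in some line and called in at least 1 comparison were given library by library. Of the partner and effector lists at most 4 called genes per comparison with the smallest adjusted p were named, and TRIO and NGEF were added beside TIAM1 and VAV3. The members and lists were chosen with earlier results of these data known. Alternatives were the likelihood ratio test, DESeq2 1.42.0, RLE or no normalization, other filters, all 9 libraries in 1 fit, a test against 1.5-fold, adjusted p alone, a replicate block and leaving out each library.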

Additional observations from a re-analysis of the deposited data

How the results depend on the processing

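The counts of called members stayed within 1.5 times their value under every alternative run. In S2-028 against S2-007 they ran from 11 to 14 higher and 6 to 7 lower without 1 library, in S2-020 against S2-007 from 6 to 7 and from 9 to 11, and in S2-028 against S2-020 from 11 to 12 and from 4 to 6. The replicate numbers did not pair the libraries, with correlations of same-numbered deviations from -0.022 to 0.014. The replicate block left 14 members higher and 6 lower, 6 and 10, and 11 and 5 in the same order of comparisons, and the call lost was EFNA2.

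Over all genes, 4858, 5769 and 5788 were called in that order, 2977, 3639 and 3638 in the test against 1.5-fold, and 8927, 10708 and 10517 with adjusted p alone. The 2 other lists moved with the thresholds too. With adjusted p alone, partners reached 4 higher and 4 lower in S2-028 against S2-007, 5 higher in S2-020 against S2-007 and 2 higher in S2-028 against S2-020. Effectors then reached 22 higher and 17 lower, 23 and 21, and 21 lower in S2-028 against S2-020. The test against 1.5-fold left 3 partners lower and 2 effectors lower in S2-028 against S2-020, and 7 effectors higher in S2-020 against S2-007. At least 10 counts in every library gave 2 partners higher in S2-028 against S2-020. Without normalization 4 effectors were lower there, where the median log2 fold change of all genes was 0.11 in place of 0.02. The cause of these moves was not tested beyond the thresholds themselves.

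Signs changed for 3 members not called in S2-028 against S2-020: EPHB4 (0.0718 without normalization, -0.0339 to 0.0090 without 1 library), ROBO1 (0.0274 and -0.1332 to 0.0132) and UNC5B (-0.3183 to 0.0364 without 1 library). The EPHB4 values above 0 also included 0.0065 and 0.0075. EPHB4 in S2-020 against S2-007 was called with DESeq2, RLE and all 9 libraries (0.61 each). Low members such as EPHB1, SLIT3 and the S2-020 values of EPHA1 and EPHB6 rest on few reads.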
